A study of Rattus norvegicus with 23 samples.

Results

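Ribosome biogenesis factors are the proteins that transcribe, modify, cut and assemble ribosomal RNA but do not stay in the finished ribosome. A list of 42 of them was followed in 2 rat kidney cell lines at 2 pH values. Its genes were chosen by name from nucleolar proteins, rRNA processing factors and RNA polymerase I, with earlier results of these data known. The count table held a row for 41 of the 42 genes, out of 30452 genes in all, and Dkc1, the pseudouridine synthase of the box H/ACA particles, was not analysed here. The row of Mybbp1a, a nucleolar binding partner of Myb, held 0 counts in all 23 samples. The row of Ddx18, an RNA helicase of large-subunit assembly, is annotated as a pseudogene and held 0 to 11 counts. The other 39 members passed the filter on low counts, as did 14777 genes in all.

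NRK-52E (NRKE in the labels) and NRK-49F (NRKF) are established lines from normal rat kidney, the first described as epithelial and the second as fibroblasts. The labels name no transgene or deletion, and both lines were grown in DMEM with serum, held without serum for 24 h and then kept for 48 h at pH 7.4 (the control) or at pH 6.0, reached with HCl. Poly(A) RNA was sequenced from 6 NRK-52E samples at each pH, 6 NRK-49F samples at pH 7.4 and 5 at pH 6.0. The labels also place the samples in numbered sample groups, 1 and 3 for NRK-52E and 4 and 6 for NRK-49F, without saying what a sample group is. Each sample group held 3 samples per pH, apart from group 4 with 2 at pH 6.0. Nothing in the labels says that the samples of a group came from separate cultures, so p-values measure the spread between these samples, which may be technical.

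Ribosome production starts in the nucleolus, where RNA polymerase I, directed by the upstream binding factor Ubtf, transcribes one long precursor RNA. Box C/D particles methylate this precursor and box H/ACA particles convert uridines to pseudouridines. The small-subunit processome folds and cuts the part that becomes the small subunit, while a separate chain of helicases, GTPases and the Pes1-Bop1-Wdr12 complex matures the large subunit before export. The pathway consumes much of a growing cell's transcription, and many of its genes are known targets of MYC, which binds the E-box CACGTG.

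The promoters with that motif are of interest here, and a few are shown because they belong to members that rose at pH 6.0 and to members that did not. Windows from 250 bases before to 50 after the RefSeq start (build GRCr8) were at hand for 36 of the 39 tested members. An E-box, which reads the same on both strands, was found in 12 of the 36 members (33.3%), in 7.08% of the 27457 genes with such a window and in 9.87% of the 9937 tested genes that could be matched to a window by symbol. The ETS core CCGGAA, searched on both strands and unable to overlap an E-box, was in 20 of the 36 (55.6%), against 16.5% of all genes and 28.3% of those tested. The following stretches run 5′ to 3′ on the strand of the gene and end at or before its start, with the E-box in capitals. Wdr75, Gnl3, Pes1 and Utp18 passed the test as higher in NRK-52E cells at pH 6.0, and Ltv1, Utp4 and Utp20 did not pass it in either direction.
Wdr75, chr9:55395047-55395102, plus strand: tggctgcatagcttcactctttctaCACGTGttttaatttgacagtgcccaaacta
Gnl3, chr16:6219783-6219832, minus strand: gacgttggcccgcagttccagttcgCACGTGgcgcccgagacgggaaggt
Pes1, chr14:83074271-83074326, plus strand: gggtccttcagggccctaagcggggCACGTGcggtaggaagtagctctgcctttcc
Utp18, chr10:79335817-79335872, minus strand: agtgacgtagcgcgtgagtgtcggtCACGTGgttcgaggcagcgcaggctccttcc
Ltv1, chr1:9398588-9398643, minus strand: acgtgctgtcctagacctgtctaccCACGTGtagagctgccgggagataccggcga
Utp4, chr19:51702191-51702240, plus strand: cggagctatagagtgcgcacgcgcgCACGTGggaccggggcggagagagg
Utp20, chr7:25102946-25103001, minus strand: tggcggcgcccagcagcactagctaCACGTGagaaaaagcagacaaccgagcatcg
The promoter of Ddx56, the member with the largest rise, held no E-box in its windows but an ETS core, in capitals here.
Ddx56, chr14:85336310-85336365, minus strand: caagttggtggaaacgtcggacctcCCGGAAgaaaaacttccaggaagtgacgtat
Counts were also taken by the direction of the pH response. In NRK-52E cells the E-box was in 5 of the 14 members with a window that rose, 1 of the 5 that fell and 6 of the 17 that passed in neither direction. The ETS core was in 6 of 14, 1 of 5 and 13 of 17. These are counts of letters in a window and carry no test.

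Total counts per sample ranged from 16412564 to 34250535. Of the markers of the labelled cell types, most of those for epithelium were at or near 0 in NRK-52E cells and most of those for fibroblasts were present in NRK-49F cells. In NRK-52E cells Cdh1, Epcam, Krt18, Cldn3, Cldn4 and Cldn7 reached at most 12 counts in any sample, and Krt8 was the only one of the 7 measured epithelial markers that was abundant, at 441 to 651 FPM at pH 7.4 and 195 to 260 FPM at pH 6.0. At the same pH it was higher in NRK-49F cells, at 667 to 1206 and 438 to 696 FPM. The NRK-49F samples held Pdgfra at 179 to 380.4 FPM, against at most 4.73 FPM in NRK-52E cells, and Twist1 at 68.8 to 102 against at most 1.96 FPM, while Col3a1 was higher in NRK-52E cells. Thy1 was at 0 in the NRK-49F controls and reached 4 counts at pH 6.0, and Dcn reached 5.68 FPM in these cells. FPM here are fragments counted per 1000000 of the TMM-scaled library and are not divided by gene length, so levels are compared between samples and never between genes.

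Single libraries stood apart in the level of the members. At pH 6.0 the NRK-49F library A042 held the highest level of the 5 samples in 28 of the 39 members. Its TMM factor, the correction edgeR applies to library size, was 0.804 and the lowest of the 23 samples. At pH 7.4 library A052 was the highest of the NRK-49F samples in 21 members, with a TMM factor of 0.877, and library A035 was the highest of the NRK-52E samples in 20, with 0.980. The same counts over all genes were not taken, so these are not shown to be particular to the members. The part of these libraries in the results was examined only by leaving each out.

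NRK-52E cells changed more members than NRK-49F cells, as held for all genes, and in both lines more members rose than fell. At pH 6.0, 15 of the 39 members were higher in NRK-52E cells by edgeR's quasi-likelihood test at an adjusted p under 0.05 (38.5%, against 24.7% of all genes tested) and 6 were lower (15.4%, against 36.6%). In NRK-49F cells 8 were higher (20.5%, against 14.5%) and 3 lower (7.69%, against 14.4%). The median log2 fold change of the members was 0.14 in NRK-52E cells, where that of all genes was -0.12, and 0.06 in NRK-49F cells, where that of all genes was 0.00. In NRK-52E cells 28 members had a positive and 11 a negative value, while 42.7% of all genes had a positive one. Without library A035 the NRK-52E counts were 16 and 6, and without library A042 they were 18 and 6. Shares of all genes in these refits are not given here. The largest values in both directions belonged to NRK-52E cells and ran from -1.22 for Polr1a to 1.19 for Ddx56.

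**Figure D1:**
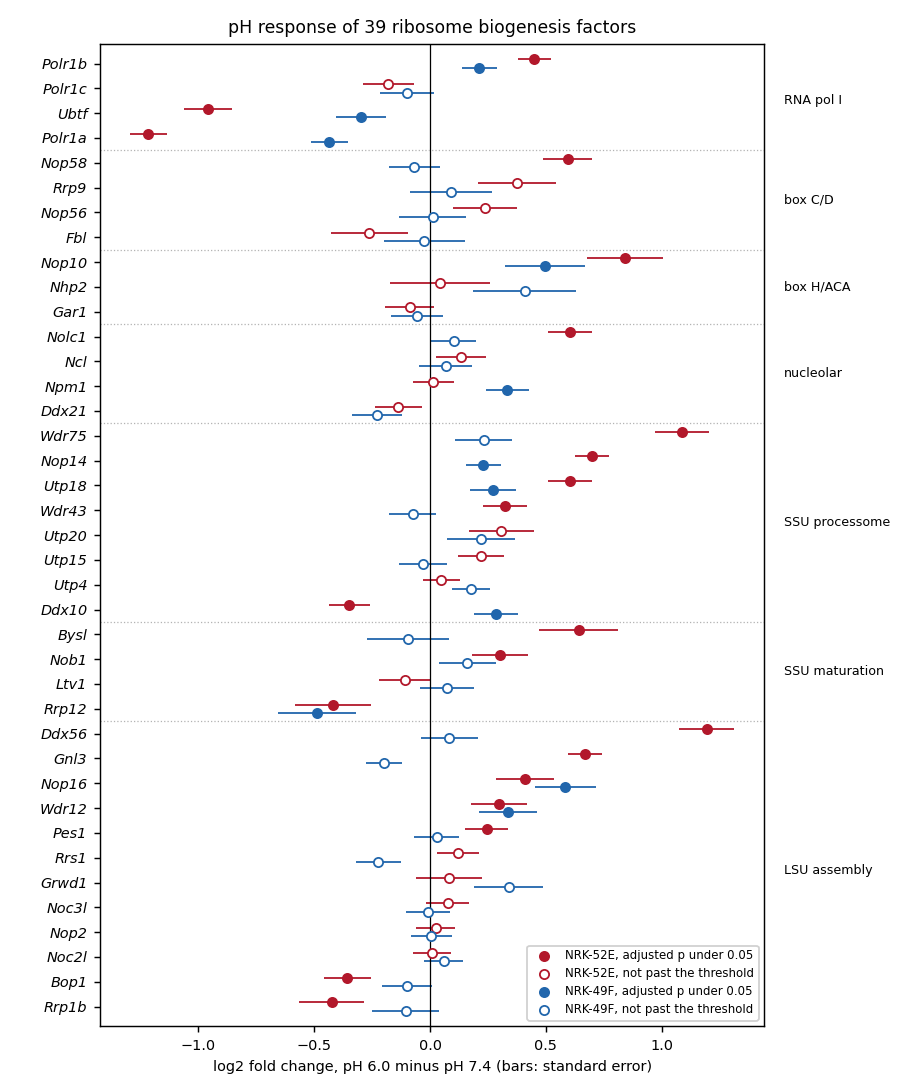
Log2 fold change from pH 7.4 to pH 6.0 of the 39 tested members (x axis) in NRK-52E (red) and NRK-49F cells (blue), ordered by role, with bars for the standard error and filled points for an adjusted p under 0.05. The red points spread from -1.22 (Polr1a) to 1.19 (Ddx56) and the blue points from -0.49 (Rrp12) to 0.58 (Nop16).

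The count of NRK-49F rises changed with the single library left out, most of all without A042. Without A042, 2 members were called higher, Nop16 and Npm1, while 12.1% of all genes were called higher in the same fit. The count was also smaller without A039 (3), A055 (4), A041 (5), A051 (5), A053 (5) or A054 (5). The shares of all genes in those fits are not given here. The falls numbered 1, Polr1a alone, without A043, A054 or A056. Nop16, Npm1 and Polr1a were called whichever single library was left out, and each of the other 8 NRK-49F calls was lost without at least 3 of them. The median log2 fold change of the members in NRK-49F cells was -0.00 without A042 and lay between that value and 0.10 when single libraries were left out. In these cells the summed level of 14 proliferation markers was also higher at pH 6.0, at 609.8 to 809.8 FPM against 444 to 556 at pH 7.4, with 6 of the markers called higher by edgeR. A042 held the highest of these sums, and the part of proliferation in the member changes was not tested.

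Direction in both lines was the same for most members called in both. Called higher in both were 6 members, Nop10, Nop14, Nop16, Polr1b, Utp18 and Wdr12. Polr1a, Rrp12 and Ubtf were called lower in both. Ddx10 alone was called lower in NRK-52E and higher in NRK-49F cells. Gnl3, higher in NRK-52E cells, was called lower in NRK-49F cells by DESeq2 (adjusted p = 0.023) and fell short by edgeR (adjusted p = 0.0542). NRK-52E cells raised a further 9 members that did not pass in NRK-49F cells (Bysl, Ddx56, Gnl3, Nob1, Nolc1, Nop58, Pes1, Wdr43 and Wdr75) and lowered 2 (Bop1 and Rrp1b), and Npm1 was called only in NRK-49F cells. Of all genes tested, 6.94% were called higher in both lines, 9.39% lower in both and 2.94% lower in NRK-52E and higher in NRK-49F cells. Shares for calls in a single line or in neither were not taken, so those classes are not shown to be particular to the members. The other 17 members passed in neither line by edgeR, although DESeq2 called Rrp9, Utp15 and Utp20 among them higher in NRK-52E cells and Rrs1 lower in NRK-49F cells.

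RNA polymerase I and its factor gave the largest falls in NRK-52E cells, while a second core subunit rose. Polr1a, the largest subunit (ENSRNOG00000009545, chromosome 4), ran from 26.1 to 29.2 FPM in NRK-52E cells at pH 7.4, with a median of 28.2. At pH 6.0 it ran from 10.98 to 13.0 with a median of 12.2. NRK-49F controls ran from 64.9 to 76.5 FPM, with a median of 67.4, and the pH 6.0 samples held 41.4, 55.9, 47.8, 50.5 and 57.7 FPM, in the order A042, A043, A054, A055 and A056 that is kept below. No sample at pH 6.0 reached the lowest control of its line. The log2 fold change was -1.22 ± 0.08 (SE) in NRK-52E cells (edgeR adjusted p = 5.45e-12) and -0.43 ± 0.08 in NRK-49F cells (edgeR adjusted p = 0.00018).

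Ubtf (ENSRNOG00000020937, chromosome 10), which loads the polymerase on the rDNA, ran from 137 to 171 FPM with a median of 143 in NRK-52E cells at pH 7.4 and from 61.8 to 97.6 with a median of 73.8 at pH 6.0. Within the pH 6.0 samples those of sample group 3 lay between 61.8 and 63.1 and those of group 1 between 84.5 and 97.6, all below the controls. The NRK-49F controls lay from 211 to 248 FPM, with a median of 217, and the pH 6.0 samples held 200.3, 162, 184, 198 and 172 FPM. These groups did not overlap either. The log2 fold changes were -0.96 ± 0.10 (edgeR adjusted p = 2.95e-08) and -0.30 ± 0.11 (edgeR adjusted p = 0.0414), the second of which was lost in 7 of the fits without a library.

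Polr1b, the second largest subunit, moved the other way. Its level in NRK-52E cells ran from 20.9 to 25.6 FPM (median 24.1) at pH 7.4 and from 30.5 to 35.2 (median 32.0) at pH 6.0, without overlap, and the log2 fold change was 0.45 ± 0.07 (edgeR adjusted p = 8.13e-06). Among NRK-49F controls the range was 16.6 to 20.2 FPM (median 19.1), and the pH 6.0 samples held 21.4, 23.7, 20.2, 20.8 and 22.1 FPM. The lowest of these lay just under the highest control, and the log2 fold change was 0.21 ± 0.08 (edgeR adjusted p = 0.0352), lost in 5 of the fits without a library. Polr1c, a subunit shared with RNA polymerase III, had log2 fold changes of -0.18 and -0.10 and was not called.

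**Figure D2:**
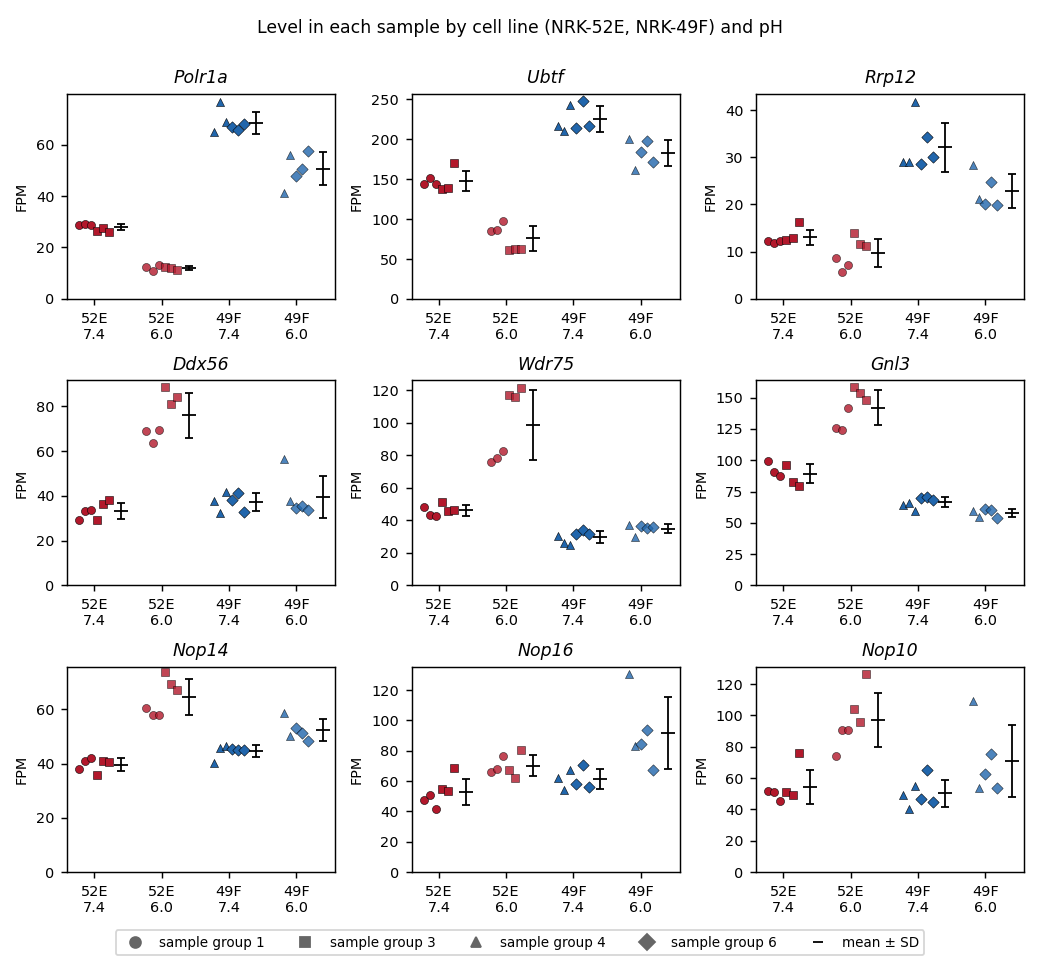
FPM (y axis, from 0) of 9 members in each of the 23 samples, by cell line (NRK-52E red, NRK-49F blue) and pH (x axis), with marker shapes for the sample groups and bars for the mean ± SD. Polr1a and Ubtf separate by pH in both lines, Ddx56, Wdr75 and Gnl3 separate in NRK-52E cells, and 1 NRK-49F sample of sample group 4, library A042, stands above the others of its condition in Ddx56, Nop16 and Nop10.

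Among the 4 box C/D proteins, Nop58 was called higher in NRK-52E cells. Nop58, a scaffold of the particle, held 80.0 to 96.7 FPM (median 88.3) in the controls of that line and 104 to 166 (median 134) at pH 6.0. The groups did not overlap, and the log2 fold change was 0.59 ± 0.11 (edgeR adjusted p = 3.12e-05). Fbl, the methyltransferase, had an NRK-52E median of 60.2 FPM at pH 7.4 (52.5 to 101) and of 55.7 at pH 6.0 (45.3 to 64.1). The value of 101 was that of library A035, and the other controls reached 67.1. In NRK-49F cells Fbl ran from 49.7 to 80.0 FPM (median 56.3) at pH 7.4 and was 82.8, 49.8, 55.9, 64.5 and 36.8 FPM at pH 6.0, within which the samples differed more than the pH values did. Its log2 fold changes were -0.26 ± 0.17 and -0.02 ± 0.17. Nop56, the partner of Nop58, had 0.24 and 0.01, and Rrp9, the U3 protein, had 0.38 and 0.09, without passing edgeR's test. DESeq2 called Rrp9 higher in NRK-52E cells (adjusted p = 0.03), as did edgeR with RLE scaling (adjusted p = 0.0362), with the likelihood ratio test (adjusted p = 0.0497) or with that line fitted alone (adjusted p = 0.0157).

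Of the 3 box H/ACA proteins tested, Nop10 rose and Nhp2 and Gar1 were not called. Nop10 ran from 45.6 to 76.0 FPM (median 51.1) in NRK-52E cells at pH 7.4, the 76.0 being library A035, and from 74.1 to 127 (median 93.5) at pH 6.0. The log2 fold change was 0.84 ± 0.16 (edgeR adjusted p = 0.000107), and only A035 reached into the pH 6.0 range. Levels in NRK-49F controls went from 40.3 to 65.0 FPM (median 48.0), and the pH 6.0 samples held 109, 53.8, 62.6, 75.2 and 53.5 FPM. The value of 109 was library A042. The log2 fold change of 0.50 ± 0.17 passed (edgeR adjusted p = 0.0318) and did not pass without A039, A040, A042, A051, A053 or A055. Nhp2 ranged widely between the NRK-49F samples, from 50.5 to 135 FPM at pH 6.0, and its log2 fold change of 0.41 ± 0.22 was not called.

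The nucleolar proteins Nolc1, Npm1, Ncl and Ddx21 split. Nolc1, a chaperone of snoRNPs, was called higher in NRK-52E cells at 0.60 ± 0.09, with levels of 59.7 to 78.9 FPM at pH 7.4 and 84.1 to 123 at pH 6.0 that did not overlap. Npm1, the histone chaperone nucleophosmin, had overlapping ranges in NRK-52E cells, with 571 to 686 FPM (median 659) in the controls and 583 to 720.4 (median 659) at pH 6.0. NRK-49F cells at pH 7.4 ranged from 712 to 931 FPM (median 783), and the pH 6.0 samples held 1098, 815, 1108, 1073 and 902 FPM. The overlap was that of 2 samples at pH 6.0 with the control range, and the log2 fold change was 0.33 ± 0.09 (edgeR adjusted p = 0.00748). Npm1 kept its call when A042 or any other single library was left out.

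Ncl, nucleolin, ran from 303 to 365 FPM (median 327) and from 288 to 431 (median 366) at the 2 pH values in NRK-52E cells. NRK-49F controls ran from 399 to 547 FPM (median 475), and the pH 6.0 samples held 523, 387, 511, 587 and 471 FPM. Its log2 fold changes were 0.14 ± 0.11 and 0.07 ± 0.11, and the groups overlapped in both lines. Ddx21, an RNA helicase, had -0.14 and -0.23 and was not called.

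The small-subunit processome held 8 tested members, with 4 rises (24.7% of all genes rose) and 1 fall (36.6%) in NRK-52E and 3 rises (14.5%) in NRK-49F cells. Wdr75 (ENSRNOG00000003825, chromosome 9), a member of the t-UTP group that binds the nascent precursor, ran from 42.4 to 51.5 FPM (median 46.2) in NRK-52E cells at pH 7.4 and from 75.9 to 121 (median 99.4) at pH 6.0. Every sample at pH 6.0 lay above every control, and those of sample group 3 (116 to 121) above those of group 1 (75.9 to 82.8). In NRK-49F cells the range was 24.8 to 34.1 FPM (median 31.1) and the values at pH 6.0 were 37.1, 29.9, 36.7, 35.1 and 36.1 FPM. Only A043, at 29.9, fell within the control range. The log2 fold changes were 1.09 ± 0.12 (edgeR adjusted p = 2.22e-08) and 0.23 ± 0.12 (edgeR adjusted p = 0.163).

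Nop14, which helps to organise the processome, ran from 35.9 to 41.9 FPM (median 40.7) in NRK-52E cells at pH 7.4 and from 57.9 to 73.8 (median 63.8) at pH 6.0. The NRK-49F controls lay from 40.1 to 46.5 FPM (median 45.2), and the pH 6.0 samples held 58.8, 50.1, 53.2, 51.1 and 48.3 FPM. The pH values did not overlap in either line. The log2 fold changes were 0.70 ± 0.07 (edgeR adjusted p = 1.39e-08) and 0.23 ± 0.08 (edgeR adjusted p = 0.0242), the second of which did not pass without A039, A042 or A054.

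Ddx10, an RNA helicase of the processome, moved in opposite directions. In NRK-52E cells it ran from 31.9 to 43.5 FPM (median 36.7) at pH 7.4 and from 25.1 to 32.9 (median 29.0) at pH 6.0, with a log2 fold change of -0.35 ± 0.09 (edgeR adjusted p = 0.00158). Among NRK-49F controls the range was 20.3 to 25.98 FPM (median 23.4), and the pH 6.0 samples held 30.2, 24.9, 29.9, 30.0 and 27.1 FPM, with a log2 fold change of 0.28 ± 0.09 (edgeR adjusted p = 0.024) that was lost without A039, A041, A042, A054 or A055. The ranges overlapped by 1 sample at pH 6.0 in each line. Utp18 and Wdr43, WD-repeat proteins of the processome, were called higher in NRK-52E cells at 0.61 ± 0.09 and 0.32 ± 0.10, and Utp18 also in NRK-49F cells at 0.27 ± 0.10. Utp4, Utp15 and Utp20 had values between 0.05 and 0.31 in NRK-52E cells and were not called by edgeR, while DESeq2 called Utp15 (adjusted p = 0.0223) and Utp20 (adjusted p = 0.0313) higher. RLE scaling and the fit of that line alone also called both.

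Of the 4 members of small-subunit maturation and export, Bysl and Nob1 rose and Rrp12 fell in NRK-52E cells. Nob1, the nuclease that makes the last cut of small-subunit rRNA, ran from 66.1 to 89.4 FPM (median 71.0) at pH 7.4, the 89.4 being library A035, and from 80.3 to 99.3 (median 88.7) at pH 6.0. Its log2 fold change was 0.30 ± 0.12 (edgeR adjusted p = 0.0318), and the call was lost without A021, A022, A023, A026, A033, A034 or A038. Levels in NRK-49F controls went from 86.3 to 126 FPM (median 98.7), and the pH 6.0 samples held 155, 91.6, 114, 129 and 91.0 FPM, with overlapping ranges and a log2 fold change of 0.16 ± 0.12. Bysl, bystin, was called at 0.64 ± 0.17 in NRK-52E cells and had -0.10 ± 0.18 in NRK-49F cells.

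Rrp12, an export factor, ran from 11.8 to 16.4 FPM (median 12.4) in NRK-52E cells at pH 7.4 and from 5.74 to 13.9 (median 9.98) at pH 6.0. The 3 samples of sample group 1 at pH 6.0 lay below every control, between 5.74 and 8.71. Of group 3, A037 (11.6) and A038 (11.2) also lay below every control, and A036 was at 13.9. NRK-49F cells at pH 7.4 ranged from 28.6 to 41.6 FPM (median 29.5), and the pH 6.0 samples held 28.4, 21.2, 20.1, 24.7 and 19.8 FPM, all below the lowest control. The log2 fold changes were -0.42 ± 0.17 (edgeR adjusted p = 0.0311) and -0.49 ± 0.17 (edgeR adjusted p = 0.0311). The NRK-49F fall was lost without A041, A043, A052, A054 or A056. The fall in NRK-52E cells did not pass without A024, A025, A026 or A035, with NRK-52E cells fitted alone (-0.33, edgeR adjusted p = 0.146) or with RLE in place of TMM scaling (edgeR adjusted p = 0.0502).

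Ltv1, another export factor, was not called. NRK-52E cells held 41.3 to 56.01 FPM (median 50.02) in the controls and 36.5 to 54.3 (median 46.7) at pH 6.0. NRK-49F controls ran from 25.6 to 31.4 FPM (median 28.9), and the pH 6.0 samples held 34.4, 26.1, 31.8, 31.4 and 26.9 FPM. Its levels overlapped between the pH values and not between the lines.

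Large-subunit assembly held 12 tested members, with 5 rises (24.7% of all genes rose) and 2 falls (36.6%) in NRK-52E and 2 rises (14.5%) in NRK-49F cells. Ddx56 (ENSRNOG00000004670, chromosome 14), a nucleolar RNA helicase, ran from 29.0 to 38.1 FPM (median 33.5) in NRK-52E cells at pH 7.4 and from 63.7 to 88.6 (median 75.1) at pH 6.0. The NRK-49F controls lay from 32.4 to 41.7 FPM (median 37.9), and the pH 6.0 samples held 56.3, 37.7, 34.7, 35.7 and 33.5 FPM. The NRK-52E groups lay far apart, and in NRK-49F cells only A042, at 56.3, left the control range. The log2 fold changes were 1.19 ± 0.12 (edgeR adjusted p = 7.9e-09) and 0.08 ± 0.12 (edgeR adjusted p = 0.662).

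Gnl3, the GTPase nucleostemin, stood at 79.5 to 99.2 FPM (median 89.1) in NRK-52E controls and at 125 to 159 (median 145) after pH 6.0. Among NRK-49F controls the range was 59.6 to 70.3 FPM (median 67.4), and the pH 6.0 samples held 59.7, 55.0001, 60.7, 60.05 and 54.2 FPM. The NRK-52E groups did not overlap. Its log2 fold changes were 0.67 ± 0.07 (edgeR adjusted p = 3.35e-08) and -0.20 ± 0.08 (edgeR adjusted p = 0.0542), the second of which passed in DESeq2 at an adjusted p of 0.023. This fall also passed in edgeR with RLE (adjusted p = 0.0402) or upper-quartile scaling (adjusted p = 0.0465) and with 10 counts in every sample (adjusted p = 0.0371). It passed with sample group as a block (edgeR adjusted p = 0.0369) or that line fitted alone (edgeR adjusted p = 0.0244). It did not pass with the likelihood ratio test or without a filter on low counts.

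Nop16 was the member with the largest rise in NRK-49F cells. It ran from 54.001 to 70.6 FPM (median 60.04) at pH 7.4 and was 131, 83.4, 84.7, 93.4 and 67.4 FPM at pH 6.0, so that 4 of the 5 samples lay above every control. In NRK-52E cells it ran from 41.9 to 68.4 FPM (median 52.2) and from 62.2 to 80.4 (median 67.7). The log2 fold changes were 0.58 ± 0.13 (edgeR adjusted p = 0.00165) in NRK-49F and 0.41 ± 0.13 (edgeR adjusted p = 0.00739) in NRK-52E cells.

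The 3 partners of the Pes1-Bop1-Wdr12 complex did not move together. In NRK-52E cells Pes1 ran from 97.6 to 127 FPM (median 98.7) at pH 7.4 and from 109 to 140.2 (median 124) at pH 6.0, Wdr12 from 22.5 to 32.5 (median 23.4) and from 27.6 to 34.9 (median 30.2), and Bop1 from 56.5 to 78.3 (median 63.1) and from 46.0 to 58.8 (median 50.6). Pes1 (0.24 ± 0.09, edgeR adjusted p = 0.0262) and Wdr12 (0.30 ± 0.12, edgeR adjusted p = 0.0346) rose and Bop1 fell (-0.36 ± 0.10, edgeR adjusted p = 0.00435). The highest control of all 3 was library A035. The call of Pes1 was lost without A021, A023, A034 or A038 and that of Wdr12 without these, A026 or A033.

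In NRK-49F cells Wdr12 ran from 24.0 to 34.95 FPM (median 26.9) and was 47.1, 29.6, 33.6, 36.6 and 30.9 FPM at pH 6.0, a log2 fold change of 0.34 ± 0.12 (edgeR adjusted p = 0.0451) that was lost in 9 of the fits without a library. Pes1 ran from 132 to 169.8 FPM (median 137) and was 169, 127, 149, 163 and 123 FPM at pH 6.0. Bop1 ran from 50.5 to 71.3 FPM (median 55.01) and was 68.0, 48.7, 49.7, 55.1 and 50.1 FPM. Both overlapped between the pH values, with log2 fold changes of 0.03 and -0.10.

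Rrp1b, a nucleolar protein of large-subunit processing, fell in NRK-52E cells from a range of 19.5 to 31.7 FPM (median 26.2) to 16.8 to 21.3 (median 19.2), with a log2 fold change of -0.43 ± 0.14 (edgeR adjusted p = 0.0104). Levels in NRK-49F controls went from 17.5 to 27.9 FPM (median 23.6), and the pH 6.0 samples held 15.6, 26.8, 19.9, 19.2 and 27.0 FPM, with a log2 fold change of -0.11 ± 0.14. The other 5 members of this role, Nop2, Noc2l, Noc3l, Grwd1 and Rrs1, had values from 0.01 to 0.12 in NRK-52E cells and from -0.22 to 0.34 in NRK-49F cells and were not called.

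Every sample of one pH lay beyond every sample of the other for 10 members in NRK-52E cells. These were the 8 members Ddx56, Gnl3, Nolc1, Nop14, Nop58, Polr1b, Utp18 and Wdr75, higher at pH 6.0 (15.4% of all genes tested were), and the 2 members Polr1a and Ubtf, lower (23.2%). In NRK-49F cells the same held for 5, with Nop14 and Utp4 higher (10.4%) and Polr1a, Rrp12 and Ubtf lower (10.2%). Utp4 was separated in this way but did not pass the test (log2 fold change of 0.18 ± 0.08, edgeR adjusted p = 0.116).

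Most NRK-52E changes were found in each sample group on its own. Within sample group 1, 12 members were called higher (18.2% of all genes were) and 6 lower (29.3%). Within sample group 3, 13 were called higher (23.1%) and 4 lower (32.8%). The groups shared 10 of the members called higher (83.3% of those of group 1 and 76.9% of those of group 3), namely Bysl, Ddx56, Gnl3, Nolc1, Nop10, Nop14, Nop58, Polr1b, Utp18 and Wdr75. They shared 4 called lower (66.7% of those of group 1 and all of those of group 3), Bop1, Ddx10, Polr1a and Ubtf. The same shares over all genes were not taken, so this sharing is not shown to be particular to the members. Rrp12 and Rrp1b were called lower in group 1 but had -0.18 and -0.25 in group 3, and Pes1, Nob1 and Wdr12 passed in neither group alone. Ncl had -0.12 in group 1 and was called higher in group 3 (0.36), and Utp4 was called higher in group 1 (0.25) and had -0.16 in group 3. Nop16 was called higher in group 1 alone, and Utp15 and Wdr43 in group 3 alone.

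The size of the NRK-52E response differed between the sample groups for 3 members. The response in group 3 minus that in group 1 was called higher for 2 members (3.45% of all genes were) and lower for 1 (6.46%). Ubtf had a log2 fold change of -0.71 ± 0.10 in group 1 and -1.26 ± 0.10 in group 3, a difference of -0.55 ± 0.14 (edgeR adjusted p = 0.0182). Nop58 had 0.33 ± 0.08 and 0.80 ± 0.08 (difference 0.47 ± 0.11, edgeR adjusted p = 0.0108), and Wdr75 had 0.82 ± 0.09 and 1.30 ± 0.09 (difference 0.48 ± 0.13, edgeR adjusted p = 0.0253). All 3 kept the direction of their response in both groups. Leaving out A035 left 1 of these differences, and DESeq2 called 6.

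The NRK-49F rises were not called within sample group 6. Within group 4, 5 members were called higher (11.4% of all genes were), Nop10, Nop14, Nop16, Polr1b and Wdr75, and 1 lower (10.5%), Polr1a. Group 4 holds library A042 as 1 of its 2 samples at pH 6.0. Within group 6, edgeR called 0 higher (9.85%), with 3 at an unadjusted p under 0.05, and 4 lower (10.4%), Gnl3, Polr1a, Rrp12 and Ubtf. DESeq2 called 1 member higher in group 6, Npm1. The difference between the groups was called by edgeR for 0 members and 0 genes in either direction (0% of all genes), with 2 members and 624 genes at an unadjusted p under 0.05, and by DESeq2 for 0 members and 10 genes. The member median was 0.15 in group 4 and -0.02 in group 6.

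**Figure D3:**
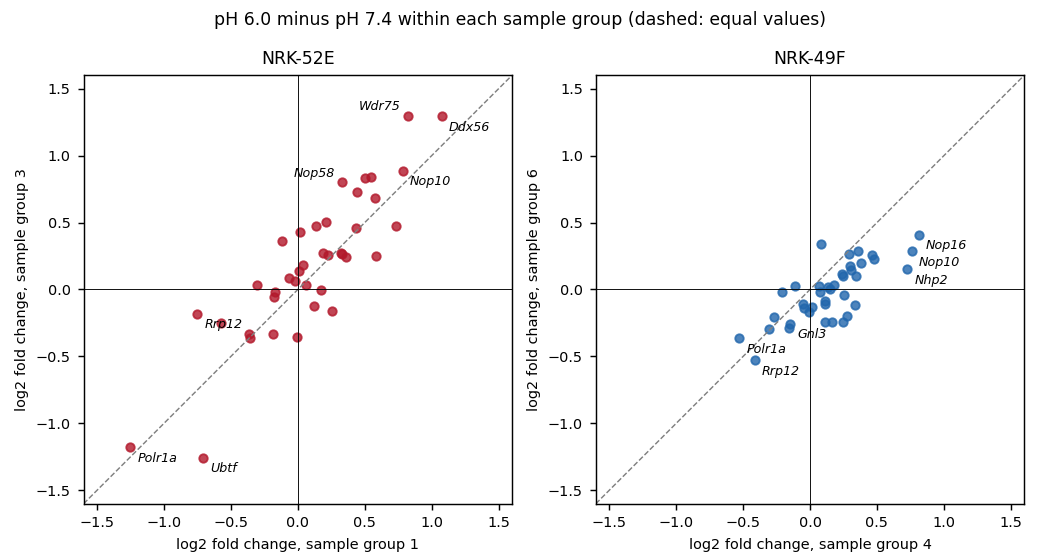
Log2 fold change from pH 7.4 to pH 6.0 of the 39 members in one sample group of a line (x axis) against the other (y axis), NRK-52E in red and NRK-49F in blue. In NRK-52E cells Wdr75 (0.82 and 1.30), Nop58 (0.33 and 0.80) and Ubtf (-0.71 and -1.26) lie off the dashed line of equal values, and in NRK-49F cells most points lie below it, with 33 of the 39 members lower in group 6 than in group 4. Of all genes, 49.2% were higher in group 6 than in group 4, and group 4 holds library A042.

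The response itself differed between the lines for 13 members. The NRK-52E response minus the NRK-49F response was called higher for 9 members (16.8% of all genes were) and lower for 4 (24.7%). Ddx56 had the largest positive difference, 1.11 ± 0.17 (edgeR adjusted p = 1.63e-05), followed by Gnl3 at 0.87 ± 0.11 (edgeR adjusted p = 7.15e-07) and Wdr75 at 0.86 ± 0.17 (edgeR adjusted p = 0.000244). Bysl (0.74 ± 0.25), Nop58 (0.66 ± 0.15), Nolc1 (0.50 ± 0.14), Nop14 (0.47 ± 0.11), Wdr43 (0.40 ± 0.14) and Rrs1 (0.34 ± 0.13) made up the rest. The 4 lower were Polr1a at -0.78 ± 0.11 (edgeR adjusted p = 4.88e-06), Ubtf at -0.66 ± 0.15 (edgeR adjusted p = 0.000961), Ddx10 at -0.63 ± 0.13 (edgeR adjusted p = 0.00036) and Npm1 at -0.32 ± 0.13 (edgeR adjusted p = 0.0453). Rrs1, which helps to place the 5S rRNA in the large subunit, passed here although edgeR called it in neither line. DESeq2 called it lower in NRK-49F cells (adjusted p = 0.0482), as did edgeR with that line fitted alone (adjusted p = 0.0389) or with sample group as a block (adjusted p = 0.0413). Npm1 was lost when any of 16 single libraries was left out and Rrs1 when any of 13 was, and Wdr43 was lost without A043. Without A042 the counts were 11 higher and 3 lower, and without A035 they were 10 and 3. For these refits too the shares of all genes are not given. Sample groups are not shared by the lines, so line and sample group cannot be told apart in these differences.

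At pH 7.4 the lines differed in 21 members. NRK-52E cells held more of 8 members (35% of all genes were higher) and less of 13 (33.9%). Without A035 the counts were 9 and 15, and the shares of all genes in that refit are not given. Rrp12 (-1.30 ± 0.16, edgeR adjusted p = 1.42e-07) and Polr1a (-1.29 ± 0.08, edgeR adjusted p = 1.96e-13) were the lowest relative to NRK-49F cells, and Ltv1 (0.79 ± 0.11, edgeR adjusted p = 1.01e-06) and Ddx10 (0.66 ± 0.09, edgeR adjusted p = 4.71e-07) the highest. For these 4 members the levels of the lines did not overlap at pH 7.4. The nucleolar proteins Ncl (-0.53 ± 0.11), Nolc1 (-0.48 ± 0.09) and Npm1 (-0.29 ± 0.09) were all lower in NRK-52E cells.

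At pH 6.0 NRK-52E cells held more of 12 members (36.6% of all genes were higher) and less of 12 (38.9%). Without A042 the counts were 11 and 9, with the shares of all genes in that refit not given. In it Nob1, Nop16 and Pes1, lower, and Utp20 and Ddx21, higher, lost their calls while Utp18 gained one. Polr1a stood at -2.08 ± 0.08 and Ubtf at -1.27 ± 0.11 relative to NRK-49F cells, compared with -1.29 and -0.61 at pH 7.4. Wdr75 stood at 1.49 ± 0.12, Gnl3 at 1.29 ± 0.08 and Nop58 at 1.06 ± 0.11, compared with 0.64, 0.42 and 0.40 at pH 7.4. Ddx56 went from -0.17 ± 0.12, not called, to 0.94 ± 0.12 (edgeR adjusted p = 3.16e-07), and Ddx10 from 0.66 to 0.03 ± 0.09, not called. The differences at both pH values rest on the samples that also give the pH responses above.

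**Figure D4:**
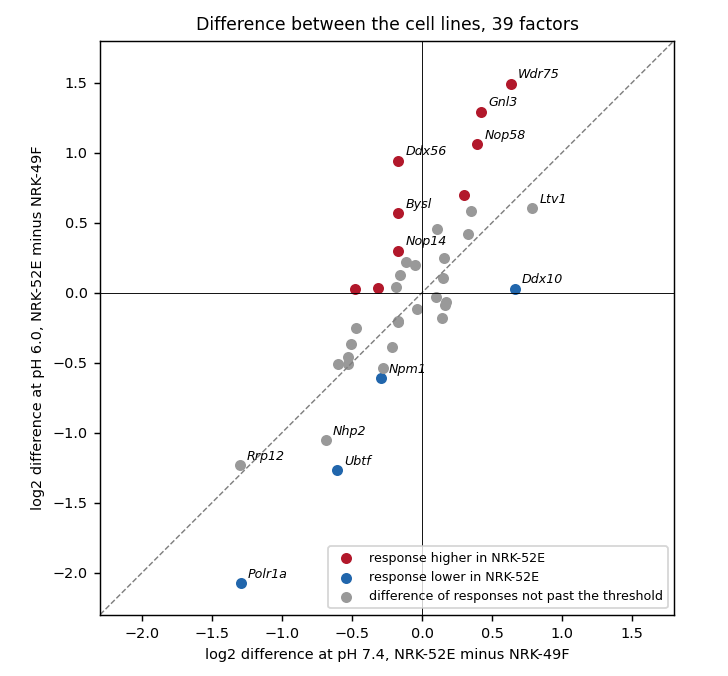
Log2 difference between the lines (NRK-52E minus NRK-49F) of the 39 members at pH 7.4 (x axis) and at pH 6.0 (y axis), coloured by the test of the difference between the pH responses. Polr1a (-1.29 and -2.08) and Ubtf (-0.61 and -1.27) lie below the dashed line of equal values, and Wdr75 (0.64 and 1.49), Gnl3 (0.42 and 1.29) and Ddx56 (-0.17 and 0.94) lie above it.

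The other genes of the pathway moved in both directions in NRK-52E cells. NRK-52E cells raised 33 and lowered 25 of the 93 tested ribosome biogenesis factors that are not members, at a median of 0.10, and NRK-49F cells raised 12 and lowered 2, at 0.06. Over all genes, to be read beside this list and those that follow, the rises were 24.7% for NRK-52E and 14.5% for NRK-49F, and the falls 36.6% and 14.4%. In NRK-52E cells Mak16, a large-subunit factor, had the largest rise (0.96 ± 0.12) and Nol12, a nucleolar RNA-binding protein, the largest fall (-1.33 ± 0.18). In NRK-49F cells these were Las1l, a rRNA endonuclease (0.76 ± 0.07), and Rrp8, a methyltransferase (-0.58 ± 0.15).

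Further RNA polymerase I genes, 16 tested, gave 4 rises and 4 falls in NRK-52E and 2 rises in NRK-49F cells. The promoter factor subunit Taf1a held 8.34 to 12.8 FPM in NRK-52E controls and 30.1 to 61.2 at pH 6.0, a log2 fold change of 2.17 ± 0.16 (edgeR adjusted p = 4.13e-11), and the polymerase subunit Polr1g fell at -0.64 ± 0.14. Rrn3, the initiation factor TIF-IA, was called higher in NRK-52E (1.05 ± 0.09) and in NRK-49F cells (0.27 ± 0.09).

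The MYC network, with 10 tested genes, gave 4 rises and 3 falls in NRK-52E and 1 rise and 2 falls in NRK-49F cells. Myc ran from 17.3 to 19.7 FPM in NRK-52E cells at pH 7.4 and from 8.55 to 12.1 at pH 6.0, a log2 fold change of -0.93 ± 0.09 (edgeR adjusted p = 3.96e-09). NRK-49F controls ranged from 20.8 to 24.1 FPM and the pH 6.0 samples from 23.2 to 29.0, at 0.20 ± 0.09 (edgeR adjusted p = 0.0961), and the responses differed by -1.14 ± 0.13 (edgeR adjusted p = 1.95e-07). Max, the partner of MYC, rose in both lines (1.26 ± 0.08 and 0.44 ± 0.08). The largest fall in this list was Mxd3 in NRK-52E cells (-2.67 ± 0.42) and Mxd1 in NRK-49F cells (-0.48 ± 0.16).

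Among the 14 proliferation markers NRK-52E cells raised 1 (Cdk1, 1.36 ± 0.16) and lowered 6, with Mki67 falling the most (-1.46 ± 0.21). Their summed level in these cells was 293 to 423 FPM in the controls and 271 to 377 at pH 6.0. In NRK-49F cells 6 were called higher, led by Ccnb1 (0.91 ± 0.34). The part of these markers in the changes of the members was not tested. In bulk samples a change of RNA per cell and a change in the share of cells that hold it cannot be told apart.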

How the data were processed

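The authors deposited raw counts per gene for the rat cells. Read pairs from poly(A) RNA were mapped with HISAT2 (version 2.1.0 per the labels) and counted on Ensembl exons with featureCounts, multi-mapping reads included, so copies of near-identical genes can share reads. The methods name the genome build rn7 and the submitters' processing notes rn6. The strand setting is not given in the sources used here. Of the per-sample columns 23 were matched to a label, and 13 others were not used here.

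The members and lists were chosen with earlier results of these data known. Members were matched by gene symbol. In R 4.3.3, edgeR 4.0.16 fitted all 23 samples with 1 coefficient for each of the 4 conditions (quasi-likelihood test after TMM scaling, with genes kept by filterByExpr at min.count 10 and min.total.count 15). P-values were adjusted by Benjamini-Hochberg over all 14777 genes, with a threshold of 0.05. A second fit with 1 coefficient per line, pH and sample group gave the values within sample groups, over 15478 genes. The SE is the absolute log2 fold change divided by the square root of F. FPM are edgeR's cpm with TMM-scaled libraries. No test was made over the list.

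Per-sample values are given for the members with the largest changes (4 each way per line at a mean of at least 5 FPM, 3 each way between the responses, 2 each way between the lines at pH 7.4) and for core members of each role. Of the lists beside the members, the called gene with the largest rise and fall in each line is named, and Myc and Rrn3 were named after their values were seen. Bysl, Nolc1, Nop58, Utp18 and Wdr43 were added to the named members after theirs were seen. The 55 pairs of samples within a condition were compared by a chi-square of their counts, which was 5.91 to 133 per degree of freedom, so none repeated another. The edgeR fit was tested on simulated counts. Alternatives were RLE and upper-quartile scaling, 2 other count filters, DESeq2 1.42.0, the likelihood ratio test, the overlap of edgeR and DESeq2, an adjusted p under 0.01, a test against a log2 fold change of 1, sample group as a block, each line fitted alone, single sample groups, and leaving out each library.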

Additional observations from a re-analysis of the deposited data

Results flagged for a closer look

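In 20 of the 156 groups of samples (39 members in 4 conditions) the highest or lowest sample lay apart from the rest by Dixon's test. A single group does so by chance about 1 time in 20, but the groups share libraries and are not independent. No excess over chance can therefore be read from the count, and the same count over all genes was not taken. Of the 20 values, 11 belonged to the NRK-52E library A035 at pH 7.4. It was the highest in Fbl (101 FPM), Nhp2 (58.5 FPM), Nob1 (89.4 FPM), Nop10 (76.0 FPM), Pes1 (127 FPM), Polr1c (76.7 FPM), Rrp12 (16.4 FPM), Rrp9 (37.98 FPM) and Wdr12 (32.5 FPM), and the lowest in Ddx21 (59.7 FPM) and Noc3l (19.3 FPM). Library A026, NRK-52E at pH 6.0, was the lowest in Ddx21 (63.3 FPM).

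Among the NRK-49F samples at pH 7.4, A052 was the highest in Fbl (80.0 FPM) and Nop2 (84.6 FPM), A040 the highest in Polr1a (76.5 FPM), and A039 the lowest in Nop14 (40.1 FPM) and Utp4 (28.2 FPM). At pH 6.0 A042 was the highest in Ddx56 (56.3 FPM), and A043 the highest in Noc3l (46.0 FPM) and the lowest in Wdr75 (29.9 FPM).

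The pH response differed between the lines by edgeR's test of the difference for 13 members. On the log2 scale, NRK-52E minus NRK-49F, these were Ddx56 (1.11), Gnl3 (0.87), Wdr75 (0.86), Bysl (0.74), Nop58 (0.66), Nolc1 (0.50), Nop14 (0.47), Wdr43 (0.40), Rrs1 (0.34), Npm1 (-0.32), Ddx10 (-0.63), Ubtf (-0.66) and Polr1a (-0.78). Between the NRK-52E sample groups, group 3 minus group 1, it differed for Wdr75 (0.48), Nop58 (0.47) and Ubtf (-0.55).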

How the results depend on the processing

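No member called by edgeR reversed its direction under any alternative run, but in NRK-49F cells the member median of 0.06 was -0.02 with sample groups 3 and 6 alone and -0.00 without A042. Of the 39 members, 4 were called higher in NRK-49F cells without a filter on low counts, as were 1987 of 22243 genes. A filter of 10 counts in every sample gave 5 members with an NRK-52E response that differed between sample groups, DESeq2 gave 6 and the likelihood ratio test 5. Of all genes, DESeq2 called 2169 different between these sample groups. The numbers over all genes with that filter and with the likelihood ratio test are not given here. DESeq2 also called 5 members lower in NRK-49F cells, where it called 4795 of 14777 genes, 2307 of them higher. At an adjusted p under 0.01, 2 members were higher and 1 lower in NRK-49F cells, and 0 differed between the NRK-52E sample groups. At that threshold 2661 of 14777 genes were called in NRK-49F cells, 1343 of them higher. The test against a log2 fold change of 1 called 0 members higher and 1 lower (Polr1a) for NRK-52E, 0 and 0 for NRK-49F, 0 and 0 between the responses, 0 and 2 between the lines at pH 7.4, 2 and 2 at pH 6.0, and 0 between the NRK-52E sample groups. Of all 14777 genes it called 1978 for NRK-52E (560 higher) and 294 for NRK-49F (142 higher). It called 966 between the responses, 3775 between the lines at pH 7.4 and 4977 at pH 6.0. With sample group as a block 5 members were lower in NRK-49F cells, where 4929 of 14777 genes were called, 2456 of them higher. With each line fitted alone 5 members were higher and 5 lower there, and 4545 of 13659 genes were called, 2244 of them higher. Sample groups 1 and 4 alone gave 5 higher and 1 lower in NRK-49F cells and 3 higher and 2 lower between the responses, and groups 3 and 6 alone gave 0 higher and 4 lower in NRK-49F cells. Of all genes, 11.4% were higher and 10.5% lower in group 4, and 9.85% and 10.4% in group 6. Between the responses in groups 1 and 4, 8.92% were higher and 14.9% lower. Leaving out 1 library gave 2 to 8 members higher and 1 to 4 lower in NRK-49F cells, and 1 to 5 that differed between the NRK-52E sample groups, 1 without A035 and 5 without A033, A042 or A043. In NRK-52E cells it gave 12 to 18 higher and 5 to 6 lower. Shares of all genes are not given beside these ranges. The causes of these shifts were not tested. Where samples were left out, smaller sample size cannot be told apart from which libraries were left out. The median log2 fold change of all genes in NRK-52E cells was -0.12 with TMM, -0.08 with RLE, -0.14 with upper-quartile scaling and -0.00 with that line fitted alone, and the member median was 0.14, 0.18, 0.12 and 0.23. No paired analysis was possible because the replicate codes are not shared between the pH values. At its depth Ddx18, with 0 to 11 counts, was not detectable as changed or unchanged.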
